A study of Mus musculus with 2 samples.

Results

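Methylation was described at 5 genes of opioid, neuropeptide and trophic signalling: Oprd1, Ramp1, Gpr45, Pcsk1n and Gdnf. The genes were chosen by name from a deposited table of regions that differed between 2 hippocampal libraries, and every distinct region with a line for one of them was taken. Each gene had 1 region, so 5 of the 276 distinct regions in the table are described. They touch 6 of the table's 296 gene symbols, since the Pcsk1n region also has a line for Eras. The table was made by reduced representation bisulfite sequencing (RRBS), in which MspI cuts DNA at CCGG and the methylation of cytosines in CpG is read in the fragments. The choline library came from mouse offspring whose mothers ate a supplemented diet between embryonic day 9 and birth, with choline chloride at 5 g/kg. The mothers of the control offspring had 1.1 g/kg in a normal diet over the same days. Offspring of both groups ate a basal diet after birth and entered mood tests at 2 months of age. Strain, sex, the age at tissue collection and the number of animals in a library are not given in the labels, beyond group codes that they do not explain. Each group had 1 library, so the spread between animals is unknown and the diets were not tested. The regions were chosen from this same contrast, so their differences are a description. In hippocampal tissue, a methylation change within a cell type and a change in the mix of cell types cannot be told apart.

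Apart from Gpr45, an orphan receptor, the genes act at different steps of signalling by peptides and growth factors. Opioid receptors are G protein-coupled receptors that answer to peptides cut from larger precursors, and the cutting is done in secretory vesicles by prohormone convertases. Calcitonin gene-related peptide (CGRP) needs an accessory membrane protein beside its receptor. Glial cell line-derived neurotrophic factor (GDNF) signals through a GPI-anchored co-receptor and the RET kinase. Methylation of CpG near a transcription start is commonly tied to silencing, while methylation inside coding sequence has no single known effect.

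Methylation was higher in the choline library at 4 of the 5 regions (Oprd1, Ramp1, Gpr45 and Gdnf) and lower at 1 (Pcsk1n). Over all 276 listed regions, 73.6% were higher in the choline library. The regions fell into 2 kinds. The regions of Oprd1 and Pcsk1n touched coding sequence, held 32 and 45 listed sites and were methylated at intermediate levels in both libraries. The regions of Ramp1, Gpr45 and Gdnf had no coding sequence line as deposited, held 5 to 7 listed sites and had control levels below 3%. Of all 203 regions higher in the choline library, 25.1% had a control level below 3%. A coding sequence line was present in 106 of the 276 listed regions, with medians of 13 listed sites and a control level of 16.6%. Control levels below 3% also occurred among those 106, so the 2 kinds describe these 5 regions only.

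**Figure D1:**
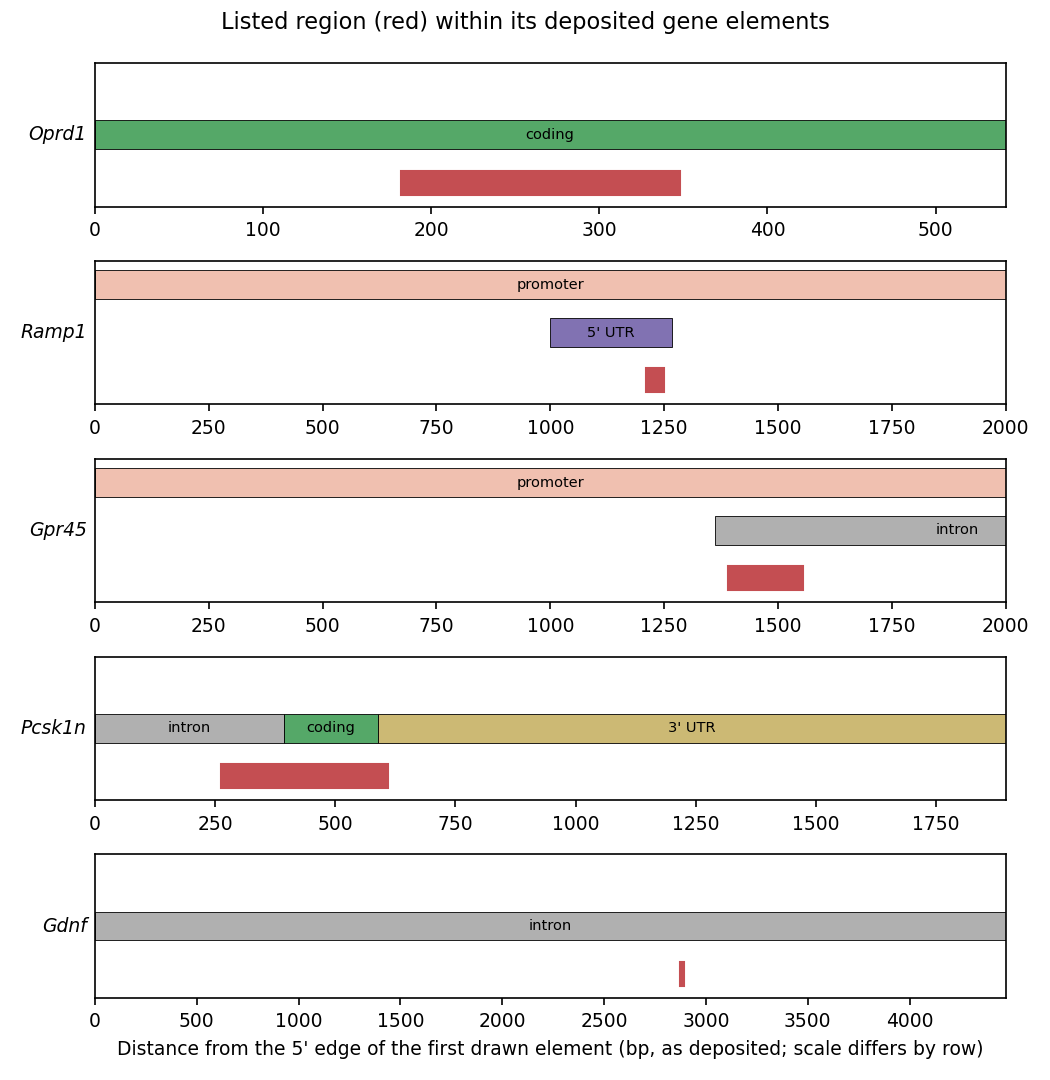
The listed region of each gene (red) is drawn below the gene elements that the deposited table assigns to it, against the distance in bp from the 5′ edge of the first element drawn, on a separate scale for each gene. The Oprd1 region lies inside coding sequence, the Pcsk1n region spans an intron end, a whole coding segment and the first 20 bp of the 3′ UTR, and the Ramp1 and Gpr45 regions lie after the gene start, which is 1000 bp into the promoter bar; the Gpr45 intron is cut off at the promoter's end.

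**Figure D2:**
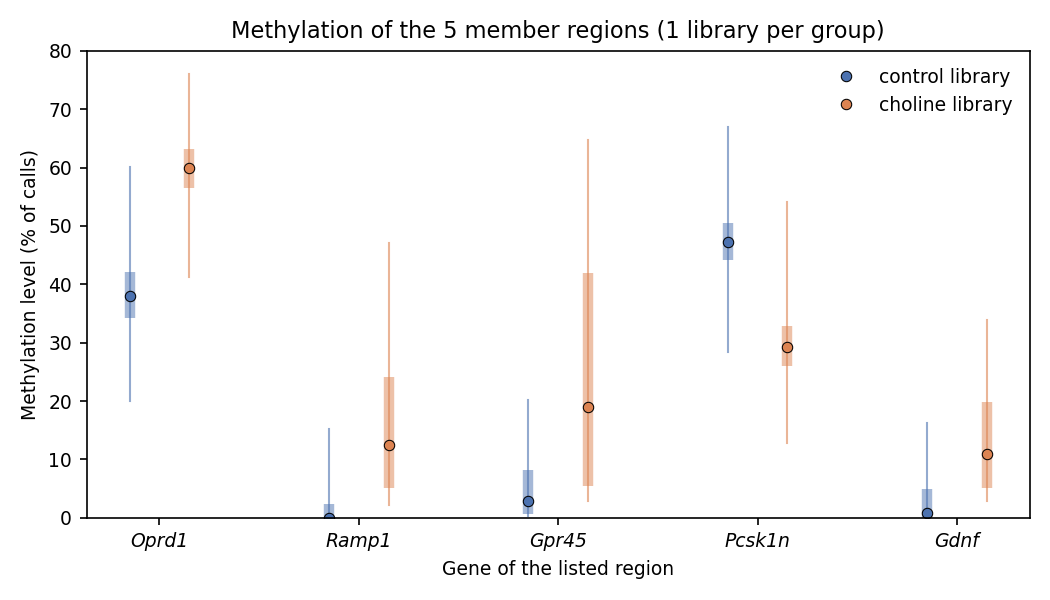
Methylation level in percent of calls for each region, as 1 point per library. Thick bars are exact 95% intervals over calls and thin lines are Wilson 95% intervals with the mean depth taken as the number of reads; the choline point is above the control point at every gene except Pcsk1n.

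Oprd1 encodes the delta opioid receptor, which binds enkephalins. Its region (chromosome 4, 131669636 to 131669801 as deposited, 166 bp) lay wholly inside a coding segment of 542 bp, 182 bp from the segment's 5′ edge and 194 bp from its 3′ edge. RefSeq on GRCm38 has 1 Oprd1 coding segment of that length, in exon 3 of 3, which encodes the C-terminal part of the receptor. In the control library 229 of 602 calls were methylated, or 38.0% (exact Clopper-Pearson 95% interval 34.1 to 42.1). In the choline library 513 of 856 calls were methylated, or 59.9% (56.6 to 63.2). The difference was 21.9 percentage points, and of the 5 regions this was the only one past 20 points, against 9.06% of all listed regions. The region had the 4th highest choline level of the 276.

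Depth at Oprd1 was 18.8 calls per site in the control library and 26.8 with choline. It was the 1 region of the 5 that was deeper in the choline library, whereas 79.0% of all listed regions were deeper in the control. A read that covers several sites gives several calls that are not independent, so each interval was also computed with the mean depth as the number of reads. The Wilson 95% interval at Oprd1 was then 20.0 to 60.2 for the control and 41.3 to 76.1 for choline. On that count the intervals of the libraries overlapped, while those over calls did not. A read need not cover every site of a region, so the number of reads can exceed the mean depth. Here and at the other regions, intervals on that count can be too wide, and their overlap is not a test of a difference.

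The listed number of sites at Oprd1 was larger than the number of CpG dinucleotides that fit there. Within the GRCm38 segment of 542 bp, which holds 48 CpG dinucleotides and 4 CCGG sites, no window of 166 bases touched more than 21 CpG dinucleotides, against 32 listed sites. A CpG dinucleotide holds 1 cytosine on each strand, and with both strands counted a window held up to 42 such cytosines. The first window with 21 whole CpG dinucleotides is printed to show the densest stretch of this segment, not its usual density, with CpG in capitals. It was chosen by that count alone and is not the listed region. Counted from the segment's 3′ edge in each build, it lies wholly within the 194 bp between that edge and the listed region, so the stretches share no base by that count. It runs 5′ to 3′ on the coding strand (chr4:132113538-132113703, minus strand, GRCm38, RefSeq).
Oprd1 coding exon window: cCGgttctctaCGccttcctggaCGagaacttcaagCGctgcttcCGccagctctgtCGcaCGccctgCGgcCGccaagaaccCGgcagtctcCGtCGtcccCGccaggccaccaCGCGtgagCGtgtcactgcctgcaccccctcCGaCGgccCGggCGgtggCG

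Gpr45 encodes an orphan G protein-coupled receptor of the brain, for which no ligand is settled. Its region (chromosome 1, 43010107 to 43010270, 164 bp) had a promoter line and an intron line. It lay 390 to 553 bp after the gene start at 43009717 that the deposited promoter line gives, and began 28 bp inside an intron of 78718 bp. RefSeq on GRCm38 has 1 Gpr45 intron of that length, intron 1 of 1, after a first exon of 362 bp. The coding sequence of 1122 bp lies on the far side of that intron, in exon 2.

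At Gpr45 the control library had 3 methylated of 104 calls, or 2.88% (exact 95% interval 0.599 to 8.20). The choline library had 4 of 21 calls, or 19.0% (5.45 to 41.9). The difference of 16.2 points rested on a choline depth of 4.20 against 20.8 in the control, and only 5 of the 276 regions had a shallower choline depth. With mean depth as the number of reads the Wilson interval was 0.349 to 20.1 for the control and 2.93 to 64.7 for choline. The intervals of the libraries overlapped on either count. With 3.05 listed sites per 100 bp this was the sparsest of the 5 regions, and 8.92 was the median over all listed regions.

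Ramp1 encodes a receptor activity-modifying protein that joins the calcitonin receptor-like receptor to form the CGRP receptor. Its region (chromosome 1, 93076608 to 93076648, 41 bp) lay in the 5′ UTR, 209 to 249 bp after the deposited gene start at 93076399, and also had a promoter line. The 5′ UTR segment of 267 bp matches 1 RefSeq GRCm38 segment, in exon 1, which all 3 annotated Ramp1 transcripts share. In the control library 0 of 149 calls were methylated (exact 95% interval 0 to 2.45), and 3 calls of the total, the limit used here for a count of 0, would be 2.01%; 3.26% of the listed regions had a control level of 0. In the choline library 7 of 56 calls were methylated, or 12.5% (exact 95% interval 5.18 to 24.1).

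The 7 methylated calls at Ramp1 equal 1 call for each of the 7 listed sites, at a depth of 8 in the choline library and 21.3 in the control. The table does not hold reads, so how many reads gave these calls was not tested, and it also depends on whether a listed site stands for 1 strand or both. With mean depth as the number of reads the Wilson interval was 0 to 15.3 for the control and 2.24 to 47.1 for choline.

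The bases upstream of the Ramp1 and Gpr45 starts are printed because both regions follow a start by a short distance. Each is the 250 bases before the RefSeq start on GRCm38, 5′ to 3′, with CpG in capitals, and neither contains the listed region. The Ramp1 stretch (chr1:91179572-91179821, plus strand) holds 4 CpG dinucleotides, and the Gpr45 stretch (chr1:42952622-42952871, plus strand) holds 11. After the Ramp1 start, on the side of the listed region, the matched 5′ UTR segment of 267 bp holds 25 CpG dinucleotides and 3 CCGG sites. The Gdnf stretch (chr15:7813477-7813726, plus strand) precedes an inner Gdnf start described with that gene and holds 14.
Ramp1 upstream: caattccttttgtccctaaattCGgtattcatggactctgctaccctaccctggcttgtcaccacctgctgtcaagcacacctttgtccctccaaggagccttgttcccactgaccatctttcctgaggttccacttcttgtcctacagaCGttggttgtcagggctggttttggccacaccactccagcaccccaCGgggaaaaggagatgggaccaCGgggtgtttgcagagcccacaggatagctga
Gpr45 upstream: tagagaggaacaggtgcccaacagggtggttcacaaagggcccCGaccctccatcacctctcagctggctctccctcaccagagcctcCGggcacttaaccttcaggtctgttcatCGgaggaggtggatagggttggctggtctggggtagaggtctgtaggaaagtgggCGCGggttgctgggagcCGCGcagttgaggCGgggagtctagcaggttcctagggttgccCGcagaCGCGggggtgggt
Gdnf inner start upstream: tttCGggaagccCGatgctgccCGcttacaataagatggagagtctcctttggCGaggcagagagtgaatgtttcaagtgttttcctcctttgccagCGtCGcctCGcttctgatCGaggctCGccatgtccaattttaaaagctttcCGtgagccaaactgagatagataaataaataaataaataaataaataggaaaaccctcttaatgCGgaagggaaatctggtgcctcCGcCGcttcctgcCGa

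Over 32851 RefSeq promoters the median was 6 CpG dinucleotides in these 250 bases. The other starts of these genes in the promoter table had 34 at Oprd1, 9 at Pcsk1n and 7 at the outer Gdnf start. The MspI site CCGG, which reads the same on both strands, occurred in 47.1% of all promoters over the same bases. It occurred 5 times at Oprd1, 2 times at the outer Gdnf start and 1 time at Gpr45, and its letters were not in these windows at Ramp1, Pcsk1n and the inner Gdnf start. All 5 genes matched the promoter table by symbol.

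Gdnf encodes a secreted survival factor for dopaminergic and other neurons. Its region (chromosome 15, 7763990 to 7764007) was 18 bp long with 5 listed sites, or 27.8 sites per 100 bp, the densest of the 5 regions. In the control library 1 of 111 calls was methylated, or 0.901% (exact 95% interval 0.0228 to 4.92). In the choline library 9 of 82 calls were methylated, or 10.98% (5.14 to 19.8). The difference of 10.1 points lay just inside the list, whose smallest difference was 10 points, and ranked 263rd of the 276 by size. The depths were 22.2 and 16.4, and with these as numbers of reads the Wilson intervals were 0.0426 to 16.2 and 2.88 to 33.9. They overlapped, while the intervals over calls did not.

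The deposited table gave this region an intron line alone, in an intron of 4474 bp. The region took bases 2876 to 2893 of that intron. RefSeq on GRCm38 has 1 Gdnf intron of that length, intron 1 of 2 in 2 of the 4 annotated transcripts. Inside the GRCm38 intron another transcript of the gene starts at base 2613, and its first exon of 351 bp runs to base 2963. A further transcript starts at base 4436. Counted from the intron's start in each build, bases 2876 to 2893 fall within that inner first exon, at bases 2613 to 2963. The match rests on the equal intron length of 4474 bp. No coordinate was carried over, and the bases were not compared between builds. The bases before the inner start are those printed above.

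Pcsk1n encodes proSAAS, a secretory granule protein known as an inhibitor of prohormone convertase 1, which cuts neuropeptide precursors. Its region (chromosome X, 7499903 to 7500249) was 347 bp long, the 2nd longest of the 276, and held 45 listed sites. It covered the last 131 bp of intron 2 of 2, the whole last coding segment of 196 bp and the first 20 bp of the 3′ UTR, and it also lay within 2000 bp downstream of Eras, a small GTPase gene on the other strand. In the control library 468 of 989 calls were methylated, or 47.3% (exact 95% interval 44.2 to 50.5). In the choline library 206 of 703 calls were methylated, or 29.3% (26.0 to 32.8).

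This was the 1 region of the 5 that was lower in the choline library, with a difference of -18.0 points; 26.4% of all listed regions were lower. The depths were 22.0 for the control and 15.6 for choline. With mean depth as the number of reads the Wilson intervals were 28.5 to 67.0 and 12.8 to 54.0, which overlapped, while those over calls did not. In the 3 joined GRCm38 elements, 1896 bp in all, no window of 347 bases touched more than 28 CpG dinucleotides, which is fewer than the 45 listed sites and allows up to 56 cytosines over both strands. At Ramp1 and Gdnf the same count allowed 8 and 5 CpG dinucleotides for 7 and 5 listed sites, so there it does not tell the units apart. The coding segment that the region covered whole is printed from GRCm38 (chrX:7922908-7923103, plus strand, 18 CpG dinucleotides in capitals and 2 CCGG sites). It was found by gene, class and length and encodes the C-terminal end of proSAAS, the part known for the convertase inhibitor.
Pcsk1n last coding segment: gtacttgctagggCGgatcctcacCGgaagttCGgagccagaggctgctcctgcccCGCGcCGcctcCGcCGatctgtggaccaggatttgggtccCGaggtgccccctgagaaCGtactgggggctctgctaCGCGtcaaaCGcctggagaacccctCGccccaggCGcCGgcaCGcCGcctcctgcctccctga

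**Figure D3:**
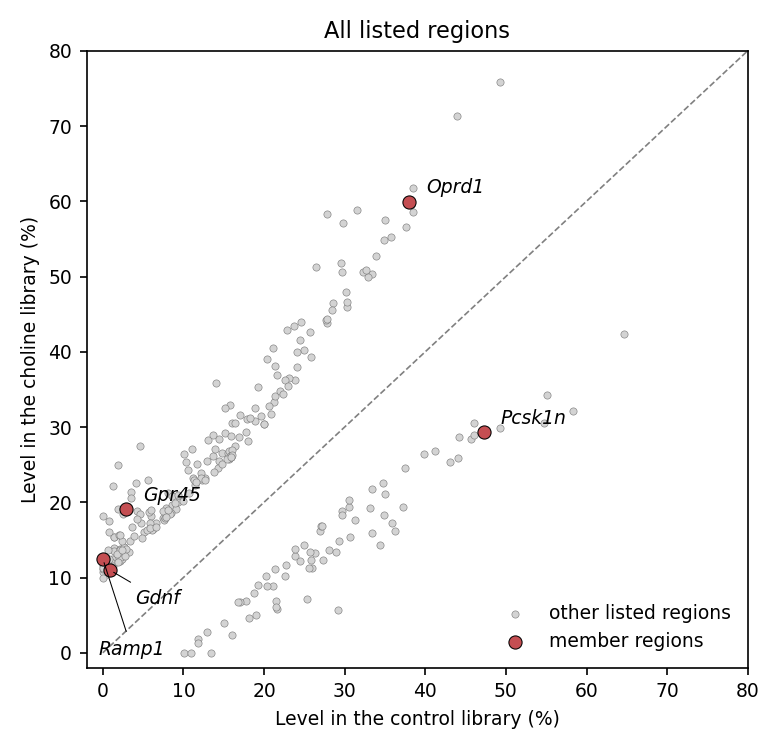
Level in the choline library against level in the control library, in percent, for all 276 listed regions; the dashed line marks equal levels. Oprd1, Gpr45, Ramp1 and Gdnf lie above the line and Pcsk1n below it, and the band along the line is empty because the smallest listed difference was 10 points.

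Set side by side, the 4 gains rested on very different numbers of methylated calls. Divided by the number of listed sites, the methylated calls in the choline library came to 16.0 per site at Oprd1, 1.8 at Gdnf, 1 at Ramp1 and 0.800 at Gpr45. Among the 189 regions that were higher in the choline library and gave whole calls, 20.6% had at most 1 methylated call per site and 36.0% at most 2. Ramp1 and Gpr45 were also the 2 regions of the 5 with a choline depth below 10, against 30.4% of all listed regions with a depth below 10 in either library. The part of depth in these differences was not tested.

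**Figure D4:**
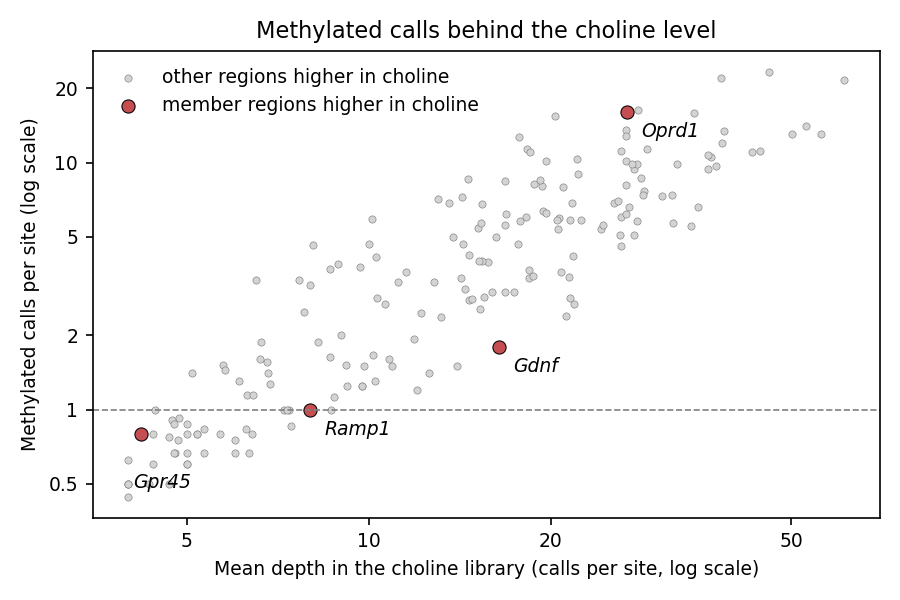
Methylated calls per listed site in the choline library against its mean depth, both on log scales, for the 189 regions that were higher in the choline library and gave whole calls; the dashed line marks 1 call per site. Oprd1 stands at 16.0, Gdnf at 1.8, and Ramp1 and Gpr45 on or under the line.

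By the authors' deposited table the adjusted p-values ranged from 0.0177 at Gpr45 to 7.00e-15 at Oprd1. The deposited p-values lay within 1% of those that Fisher's exact test (two-sided) gave from the calls in all 259 regions with whole calls. That test takes each call as independent, so regions with more listed sites reach smaller values at the same depth. Among listed regions with both levels above 0, the smallest ratio of the higher to the lower level was 1.5. Oprd1 had a ratio of 1.58 and Pcsk1n one of 1.61.

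For each region, the listed region of other genes with the nearest pair of levels was found by Euclidean distance over the 2 libraries. Oprd1 was nearest to Kcp (38.2% with the control diet and 59.5% with choline, 0.491 points away). Pcsk1n was nearest to an intron of Shroom3 (46.0% and 29.0%), a cytoskeletal regulator. Gpr45 was nearest to an intron of Zfp362, a zinc finger gene, which stood at 2.54% and 18.5% with a choline depth of 18.4 in place of 4.20. Gdnf was nearest to an intron of Ppp1r16b, a regulatory subunit of protein phosphatase 1 (1.08% and 11.1%). Ramp1 had the same levels as a region shared by 4930413G21Rik and Rbbp6, 0% and 12.5%, which had a choline depth of 6.

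Other genes of the same pathways were looked up in lists chosen with earlier results of these data known. Of 202 genes in 7 signalling lists, 8 had a listed region, among them the 5 members, and 7 of these 8 regions were higher in the choline library, against 73.6% of all listed regions. Of 21896 protein-coding genes in the RefSeq table, 1.25% had a listed region. As 5 of the 8 are there by choice, nothing is read from the count. The gene table held 200 of the 202 symbols. Of 12 genes of the GDNF family and its receptors, Gdnf and Ret had a region, both higher. Ret, the kinase through which GDNF signals, had an intron region (chromosome 6, 118146797 to 118146831) with 1 methylated of 124 control calls, or 0.806%, and 4 of 25 choline calls, or 16.0%. Its choline depth was 5, and like the Gdnf region it held 5 listed sites and was near 0 in the control.

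Of 34 orphan receptors of the brain (33 in the gene table), Gpr45 and Gpr19 had a region, both higher. The Gpr19 region (chromosome 6, 134837592 to 134837655) had 0 of 83 methylated calls in the control, where 3 calls would be 3.61%, and 12 of 106, or 11.3%, in the choline library. Its choline depth of 21.2 was above the control depth of 16.6. Of 74 other neuropeptide and receptor genes, Ucn alone had a region, in its promoter (chromosome 5, 31441314 to 31441595), which Mpv17 and Trim54 share. Ucn encodes urocortin, a peptide of the corticotropin-releasing factor family, and the region had 30 methylated of 334 control calls (8.98%) and 44 of 221 choline calls (19.9%).

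Oprd1 was the single gene with a region among 10 opioid receptor and peptide genes, Ramp1 among 11 genes of the calcitonin and CGRP family, and Pcsk1n among 19 genes of prohormone processing. None of 42 other neurotrophic factor and receptor genes (41 in the gene table) had one. Of 22 marker genes of hippocampal cell types, Rbfox3 of neurons (15.8% and 33.0%) and Aldh1l1 of astrocytes (31.5% and 58.9%) had a listed region, both higher in the choline library, and their part in the results was not tested. A gene without a line may not have been covered or may not have met the listing criteria, and the table does not tell these apart.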

How the data were processed

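Hippocampal RRBS of 2 mouse libraries, 1 per diet, was used as 1 table of regions. Groups came from the source names and columns were matched by the codes in the sample titles. The methylation fraction (methylated over all calls of a region), the coverage (signal: mean calls per site), the count of CpG sites and the p-values were deposited by the authors. Trimming used cutadapt and alignment used SOAPaligner against converted genomes, per the series' design text, and the submitters' processing notes also list CASAVA 1.8. Which caller and thresholds gave the regions is not given in the sources used here.

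Regions were counted once each over 725 lines, and 70 of 136 promoter lines had lost letters of the symbol, restored from other lines of the region. Level, depth and sites multiplied to whole calls (tolerance 1e-06) in 259 of 276 regions, all 5 members among them, with 86235 control and 60988 choline calls in all. Median depth was 24.5 (4.89 to 64.3) in the control and 15.6 (4 to 64.4) in the choline library. Exact Clopper-Pearson 95% intervals over calls and Wilson intervals with mean depth as n (SciPy 1.17.1) cover counting error only, since each group had 1 library. No molecular identifiers are stated, so repeated reads of 1 molecule could not be told apart. In simulated data the recovery of calls, tested for the control against choline table over 300 regions, was 100%. The simulated levels and depths were built from whole calls, so this checks the arithmetic only. It does not bear on the 17 listed regions without whole calls. Listed sites exceeded the CpG dinucleotides possible at Oprd1 and Pcsk1n, so at those regions a site cannot stand for a dinucleotide read once over both strands. If each strand is listed apart there, the reads of both strands can outnumber the mean depth that the Wilson intervals use.

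The design text names mm10 and the notes mm9 and mm10, but the deposited starts of Ramp1 and Gpr45 lay 1896577 and 56845 bp from those of GRCm38. Positions are thus those of the table, with no build named. Elements were matched to RefSeq GRCm38.p6 by gene, class and length: each of the 7 exon and intron elements of the members matched 1 annotated element. Members and gene lists were chosen with earlier results of these data known. Genes named are the members, genes that share their regions, list genes with a region, and the region nearest in levels to each member, with the genes that share it.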

Additional observations from a re-analysis of the deposited data

How the results depend on the processing

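Of the 5 regions, 4 were higher in the choline library. Where neither library was shallower than 10, 2 were (Oprd1 and Gdnf), at a depth of at least 20 the number was 0 because no member region remained, for differences of at least 20 points it was 1 (Oprd1), and with at least 10 listed sites it was 1 (Oprd1). These counts fall by construction, since each alternative keeps fewer regions, and counting pairs of a region and a gene left 4. The number of signalling genes with a region, 8, became 5 at a depth of at least 10, 1 for differences of at least 20 points and 3 for regions with a promoter line, and stayed 8 with symbols exactly as deposited. Levels from whole calls equal the deposited levels by construction, so they could not change a difference. Adding 1 methylated and 1 unmethylated call or read could not reverse the gains at Ramp1, Gpr45 and Gdnf. Their levels were low in both libraries and the choline library was shallower. Nor could it at Oprd1, where methylated calls were the minority in the control and the majority with choline. Pcsk1n went from -18.0 to -15.9 points with reads added. The kept directions are thus no support for the differences. The value that moved most was Gpr45, from 16.2 to 22.0 points with reads added, because an added pair weighs more at a depth of 4.20. Distances to the start at Ramp1 and Gpr45 were 229 and 471.5 bp from the midpoint and 209 and 390 bp from the nearest edge. No paired analysis was possible because each group has 1 library, and for the same reason no library could be left out.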

Other observations

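Ramp1 and Gpr19 were among 9 of the 276 listed regions (3.26%) with no methylated call in the control library. Of these 9, the Gpr19 region had the deepest choline coverage, 21.2 calls per site, and Fhl1 followed with 12; the other 7 were at 8 or below. In the choline library their levels ran from 10% at Fhl1 to 18.2% at Fah, 2 genes that were named after their values were seen.

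A whole number of methylated calls per listed site, as at Ramp1, was found in 22 of the 189 regions that were higher in the choline library and gave whole calls (11.6%).

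Pcsk1n lay in 1 of 7 listed regions on chromosome X, of which 4 (57.1%) were higher in the choline library, against 73.6% of all listed regions. With so few regions, nothing is read from that share. Its control level of 47.3% was the highest of the 7, and the others stood at 0% to 29.6%. The labels do not state the sex of the offspring, which bears on levels on this chromosome. The nearest other listed region on that chromosome, at Bcor, was 4163799 bp away. At Oprd1 the nearest listed region, at Tmem200b, was 193442 bp away, and Gdnf was 68543688 bp from the next region on chromosome 15.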
